A study of Mus musculus with 21 samples.

Results

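Amiodarone and ivabradine were compared directly in the regenerating tip of the neonatal mouse heart. The comparison takes 6 of the 21 RNA libraries of the series, 3 from each drug, and the 12051 of 18762 genes that reached 1 FPKM (fragments per kilobase of transcript, scaled to the size of the library) in at least 3 of those 6. All animals were ICR mice whose ventricular apex had been resected as 1-day-old neonates, and the heart apex was taken at postnatal day 7. The amiodarone and ivabradine groups received that drug subcutaneously in a course given as 7 consecutive days. The other groups, of 3 libraries each, were resection alone (the control), isoproterenol, metoprolol, propranolol and lidocaine, all after the same resection. The labels give no dose, no injection for the control, no sex, and no word on whether libraries came from separate animals or pools, so p-values measure the spread between libraries only, which may be technical.

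Both drugs steady or slow the heartbeat by different routes. Amiodarone blocks the rapid delayed-rectifier potassium channel and, less selectively, sodium channels, calcium channels and adrenergic receptors. It is also iodinated, antagonises thyroid hormone receptors and collects in lysosomes, where it hinders phospholipid breakdown. Ivabradine blocks the HCN channels that carry the pacemaker current of the sinus node and is used for slowing the rate without a direct effect on contraction. The newborn mouse ventricle can regrow a resected apex during the first days of life, which is the setting of these libraries.

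The library values touched the comparison in a few ways. Libraries summed to 496304 to 552905 FPKM over the 6, with 16445 to 16589 genes above 0. No read counts were given, so absolute depth is unknown. The spacing of low values in 28 genes gave relative depths of 0.966 to 1.03 over all 21 libraries. Across tested genes, log2 values correlated at r = 0.992 to 0.995 within a drug and at 0.989 to 0.993 between the drugs. The heart label held: 16 of 16 ventricular cardiomyocyte markers were tested, 0 were called different (4 higher and 1 lower at an unadjusted p below 0.05, limma), and their summed level was 49340 to 54105 FPKM with amiodarone and 50087 to 57207 FPKM with ivabradine.

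Amiodarone 2 carried lung transcripts. Sftpc, surfactant protein C of alveolar type II cells, reached 222 FPKM there, against 0.07 and 0.00 FPKM in the remaining amiodarone libraries and 0.14, 0.00 and 0.00 FPKM with ivabradine. Summed over the 23 lung epithelium markers in the table, amiodarone 2 held 332 FPKM and the other 5 libraries 34.7 to 43.9 FPKM. Only 4 of these markers reached the test, Abca3, Ager, Lyz1 and Ctsh, and 0 were called. Sftpb, Sftpa1, Sftpd, Slc34a2 and Cldn18 were likewise at 2.18 to 22.4 FPKM in amiodarone 2 and at 0.21 FPKM or less in the other 5. Other libraries stood apart too. Mylpf, a fast skeletal muscle light chain, measured 30.4 FPKM for amiodarone 3, 11.6 FPKM for amiodarone 2 and 1.34 to 2.80 FPKM elsewhere in the 6. The 4 Y-linked genes summed to 0.76 FPKM in ivabradine 2 against 38.1 to 49.0 FPKM in the other 5. Where leaving out amiodarone 2 ended the call of a named gene, this is said beside it.

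**Figure D1:**
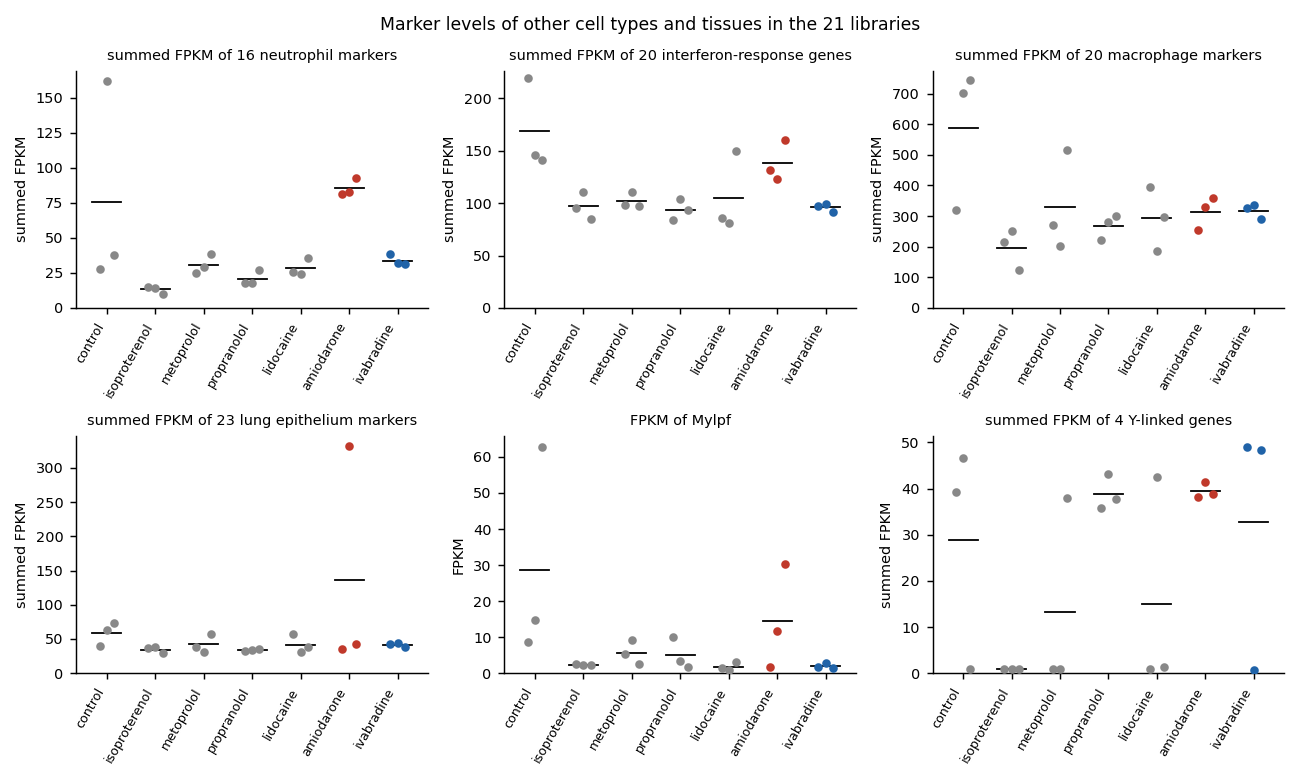
Summed FPKM of marker lists, and FPKM of Mylpf, in each of the 21 libraries (points; bars are group means). Lung epithelium markers stand apart in amiodarone 2 (332 FPKM), Y-linked transcripts are near 0 in ivabradine 2, and the neutrophil sum is 81.6 to 92.7 FPKM with amiodarone against 31.0 to 38.4 FPKM with ivabradine.

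Few genes separated the drugs. At a Benjamini-Hochberg adjusted p below 0.05 in limma, 130 of 12051 genes (1.08%) differed, 77 higher with amiodarone (0.639%) and 53 lower (0.440%). Differences were small, with a median size of 0.46 among the called genes and a range of 0.20 to 1.44 on the log2(FPKM + 1) scale, on which all differences below are given and which understates those of low genes. Amiodarone and ivabradine libraries did not overlap for any of the 130, and they did not overlap for 2044 tested genes (17.0%), with all amiodarone libraries above in 8.90% and below in 8.06%. The median difference over all tested genes was 0.00, and 49.6% were positive. Without amiodarone 2, 48 genes were called (0.398%), 27 higher and 21 lower, and all 48 were among the 130. Leaving out amiodarone 1 instead gave 22 calls, all among the 130. Leaving out ivabradine 1 gave 68 calls with 56 among the 130, ivabradine 3 gave 56 with 47, and ivabradine 2 gave 243 with 111. The fit of the 6 libraries alone called 76 genes, of which 44 were among the 130.

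**Figure D2:**
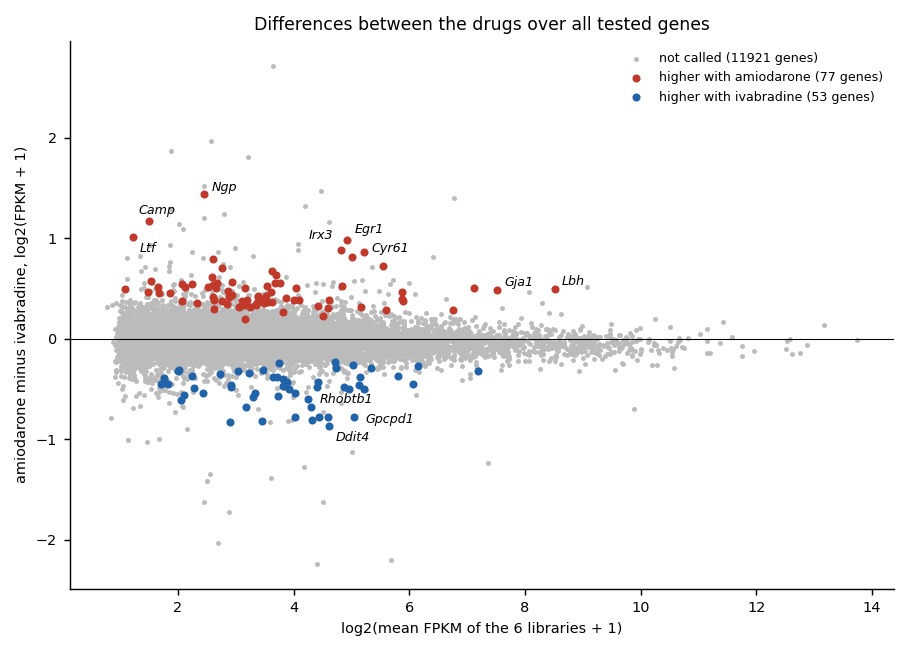
Difference between the drugs (vertical axis, amiodarone minus ivabradine on the log2(FPKM + 1) scale) against mean level for 12051 tested genes. Called genes are coloured, 77 above 0 and 53 below, and most lie within 1 log2 unit of 0; some larger grey differences were not called.

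Cyr61, Egr1 and Irx3 led the genes of moderate level that were higher with amiodarone. Cyr61 (also Ccn1), a matricellular protein and classic target of the Hippo pathway effector YAP, stood at 54.4, 44.8 and 42.4 FPKM with amiodarone and at 22.6, 24.2 and 29.5 FPKM with ivabradine. Every amiodarone library lay well above every ivabradine library, and the control libraries, at 26.9 to 31.7 FPKM, sat near ivabradine. The difference was 0.87 ± 0.11 (SE, n = 3 libraries a group; adjusted p = 0.001, limma), and it passed without each of the 6 libraries in turn.

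Egr1, an immediate early transcription factor, stood at 52.1, 33.7 and 32.0 FPKM with amiodarone and at 12.6, 21.5 and 24.6 FPKM with ivabradine. The groups were apart but each was wide, and 1 amiodarone library was far above the other 2. Its difference of 0.98 ± 0.22 (SE; adjusted p = 0.033) missed the threshold without amiodarone 1 (0.19), amiodarone 2 (0.086) or ivabradine 1 (0.15).

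Irx3, a homeobox factor of the ventricular conduction system, stood at 37.8, 34.1 and 34.7 FPKM with amiodarone and at 21.4, 19.9 and 15.6 FPKM with ivabradine. The control libraries held 39.3 to 43.4 FPKM, so here it was ivabradine that lay away from the control level. The difference was 0.88 ± 0.15 (SE; adjusted p = 0.0076), and 0.06 without amiodarone 1. Its neighbour in function Irx5, named after its values were seen, stood at 7.08 to 8.48 FPKM against 5.05 to 5.82 FPKM and was not called (adjusted p = 0.15).

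Angptl4, a secreted inhibitor of lipoprotein lipase, stood at 70.0, 54.0 and 48.8 FPKM with amiodarone and at 34.1, 37.2 and 31.2 FPKM with ivabradine. All 3 ivabradine libraries were the lowest of the 6, and the control libraries, at 68.2 to 80.9 FPKM, reached from the top of the amiodarone range upward. The difference was 0.72 ± 0.14 (SE; adjusted p = 0.016), lost without amiodarone 1 (0.098), ivabradine 1 (0.058) or ivabradine 3 (0.082). Phlda1, a pleckstrin-homology protein, stood at 48.99, 34.9 and 35.9 FPKM against 20.8, 21.4 and 24.2 FPKM (0.81 ± 0.17, SE; adjusted p = 0.023), with controls at 39.8 to 41.9 FPKM. Without amiodarone 1 or ivabradine 1 that p was 0.13 or 0.092.

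Zfp608, a zinc finger protein, stood at 6.89, 7.53 and 5.70 FPKM with amiodarone and 3.01, 3.76 and 3.50 FPKM with ivabradine (0.80 ± 0.12, SE; adjusted p = 0.0039), and the call held without each library in turn. Klhl38, a kelch-like protein of striated muscle, stood at 6.72 to 8.33 FPKM against 3.69 to 4.55 FPKM (0.70 ± 0.15, SE; adjusted p = 0.03), a call that only the leaving out of ivabradine 2 preserved. The control levels of both, 6.06 to 6.84 and 5.24 to 8.38 FPKM, covered or neared the amiodarone levels.

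Among abundant genes, Lbh, a transcriptional cofactor of limb and heart development, was the steadiest. It stood at 436, 428 and 417 FPKM with amiodarone and at 299, 322 and 288 FPKM with ivabradine. The amiodarone libraries lay close together and the nearest ivabradine library far below them. The difference was 0.50 ± 0.06 (SE; adjusted p = 0.00072, and 0.0045 without amiodarone 2).

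Both connexin genes among the called set were higher with amiodarone. Gja1, the main gap junction protein of working ventricular muscle, stood at 213, 224 and 204 FPKM with amiodarone and 135, 161 and 160 FPKM with ivabradine (0.49 ± 0.07, SE; adjusted p = 0.003). Gja5, the connexin of atrium, conduction system and arterial endothelium, stood at 7.61, 8.36 and 6.42 FPKM against 5.82, 5.23 and 4.97 FPKM (0.41 ± 0.09, SE; adjusted p = 0.03). Gja1 was named after its values were seen and kept its call without each library in turn. Gja5 lost it in 4 of 6 such fits, with an adjusted p of 0.16 without amiodarone 2. It was the only called gene among 10 tested atrial and conduction markers (0.639% of all tested genes were called higher). Of these markers, Nppa (natriuretic peptide A) was at 639 to 814 FPKM with amiodarone and 1091 to 1226 FPKM with ivabradine. Nppa was not called (-0.70, adjusted p = 0.30, and 0.018 in the fit of the 6 libraries alone).

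**Figure D3:**
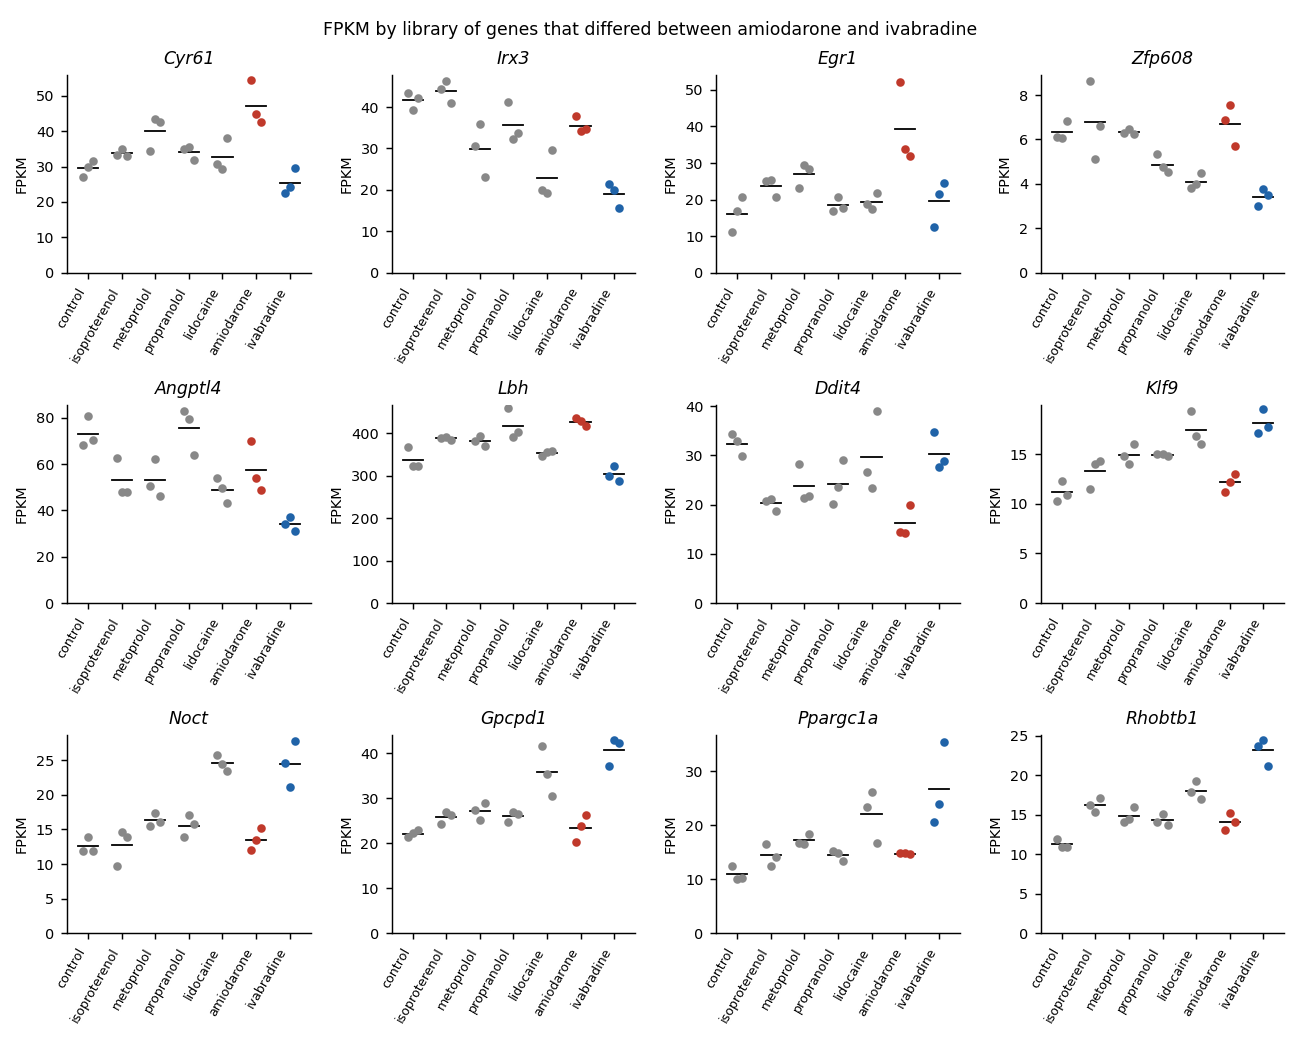
FPKM of 12 called genes in each of the 21 libraries (points, amiodarone red, ivabradine blue, other groups grey; bars are group means). The first 6 were higher with amiodarone and the last 6 with ivabradine.

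Ddit4 had the largest difference among the called genes higher with ivabradine. This inhibitor of the growth kinase mTORC1 that responds to hypoxia, energy stress and glucocorticoids stood at 14.5, 14.3 and 19.97 FPKM with amiodarone and 34.7, 27.5 and 28.8 FPKM with ivabradine. Here amiodarone lay away from the control libraries, which held 29.8 to 34.3 FPKM. The difference was -0.87 ± 0.17 (SE; adjusted p = 0.015), lost without amiodarone 1 (0.081), amiodarone 2 (0.087) or ivabradine 1 (0.071).

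Rhobtb1, an atypical GTPase with BTB domains, had the smallest p of all. It stood at 13.1, 15.2 and 14.1 FPKM with amiodarone and 23.7, 24.4 and 21.2 FPKM with ivabradine, and at 10.9 to 11.98 FPKM in the controls. Ivabradine held the 3 highest libraries of these 3 groups. The difference was -0.67 ± 0.07 (SE; adjusted p = 0.00017, and 0.00038 without amiodarone 2).

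Gpcpd1, a glycerophosphocholine phosphodiesterase, stood at 20.2, 23.7 and 26.2 FPKM with amiodarone and 37.2, 42.9 and 42.2 FPKM with ivabradine (-0.78 ± 0.10, SE; adjusted p = 0.00072). Noct, a rhythmically expressed phosphatase once described as a deadenylase, stood at 11.97, 13.5 and 15.1 FPKM against 24.7, 21.1 and 27.8 FPKM (-0.81 ± 0.12, SE; adjusted p = 0.0039). Both kept their calls without each library in turn, and the controls of both, 21.3 to 22.8 and 11.9 to 13.9 FPKM, were at the amiodarone level.

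Cebpb, a basic leucine zipper factor of inflammation and energy balance, stood at 7.87, 6.06 and 6.92 FPKM with amiodarone and 14.5, 10.8 and 13.8 FPKM with ivabradine (-0.82 ± 0.15, SE; adjusted p = 0.014). Its adjusted p was 0.087 without amiodarone 2, 0.065 without ivabradine 1 and 0.063 without ivabradine 3. Tmem100, an endothelial membrane protein downstream of BMP signalling, stood at 15.8, 15.9 and 18.2 FPKM against 26.7, 25.0 and 37.2 FPKM (-0.78 ± 0.14, SE; adjusted p = 0.0088), with controls lower than both at 10.4 to 11.7 FPKM. Arl4d, a small GTPase of the ARF family, stood at 5.23 to 7.25 FPKM against 9.38 to 10.6 FPKM (-0.68 ± 0.11, SE; adjusted p = 0.0071). Both lost the call without amiodarone 1 alone (0.062 and 0.056). Olfml2b, an extracellular olfactomedin-like protein, stood at 9.92 to 12.4 FPKM against 16.5 to 22.4 FPKM (-0.78 ± 0.18, SE; adjusted p = 0.045) and passed in none of the 6 fits that left out a library.

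A smaller set did not hang on any library. Of the 130 genes, 18 were called in each of the 6 fits with a library left out, 9 higher and 9 lower. The higher ones were Cyr61, Zfp608, Grip2, Bambi, Lbh, Gja1, Pik3c2b, Nfatc2 and Six5, and the lower ones included Noct, Gpcpd1, Rhobtb1, Klf9, Plin4, Palmd, Nes and Zfp612. Across all 17 alternatives 8 were called each time, among them Cyr61, Lbh, Grip2, Gpcpd1, Rhobtb1, Plin4 and Palmd. These genes are named for that count, after their values were seen. Bambi, a pseudoreceptor that dampens TGF-β and BMP signals, stood at 3.98 to 4.26 FPKM with amiodarone and at 2.59 to 2.61 FPKM with ivabradine (0.51 ± 0.09, SE; adjusted p = 0.007). Plin4, a lipid droplet coat protein, stood at 24.5, 25.5 and 24.3 FPKM against 35.2, 34.6 and 36.4 FPKM (-0.50 ± 0.07, SE; adjusted p = 0.0016), and Nes, the intermediate filament nestin, at 26.6 to 30.4 FPKM against 37.1 to 42.1 FPKM (-0.46 ± 0.07, SE; adjusted p = 0.0043).

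The drugs' own targets were not called. Hcn2 and Hcn4, the HCN subunits above the filter, stood at 12.6 to 17.1 against 16.2 to 17.8 FPKM and 1.19 to 2.23 against 0.72 to 1.47 FPKM, with overlap in both (-0.21 and 0.30; adjusted p = 0.62 and 0.47). Kcnh2, the channel amiodarone blocks, stood at 46.7 to 48.96 FPKM against 44.2 to 47.4 FPKM (0.07, adjusted p = 0.71). Among 19 tested cardiac potassium channel genes 0 were called (3 higher and 1 lower at an unadjusted p below 0.05, limma). The count was also 0 for 5 sodium channel genes (0 and 0) and for 21 genes of calcium channels and cycling (2 and 3). In the last list Slc8a1, the sodium-calcium exchanger, was at 35.7, 47.4 and 31.3 FPKM with amiodarone and 17.9, 30.6 and 28.1 FPKM with ivabradine, apart but not called (0.57 ± 0.16, SE; adjusted p = 0.099).

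In β-adrenergic signalling, 1 of 22 tested genes was higher and 1 lower with amiodarone (0.639% and 0.440% over all tested genes). Arrb1, β-arrestin 1, which uncouples active receptors from their G protein, stood at 10.9, 11.3 and 10.3 FPKM against 7.25, 8.78 and 8.38 FPKM (0.37 ± 0.08, SE; adjusted p = 0.025; 0.12 without amiodarone 2). Pde4d, a phosphodiesterase that degrades cyclic AMP near these receptors, stood at 4.74, 5.84 and 5.42 FPKM against 6.88, 8.16 and 8.40 FPKM (-0.48 ± 0.08, SE; adjusted p = 0.0091; 0.074 without amiodarone 1 and 0.056 without ivabradine 3). The β1-receptor gene Adrb1 was at 15.1 to 18.2 FPKM against 11.9 to 14.6 FPKM and was not called (0.33, adjusted p = 0.089).

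Thyroid hormone signalling showed 0 higher and 1 lower of 17 tested genes (0.639% and 0.440% over all tested genes). The lower one was Klf9, a Krüppel-like factor induced by thyroid hormone and by glucocorticoids, at 11.2, 12.2 and 13.04 FPKM with amiodarone and 17.1, 19.5 and 17.8 FPKM with ivabradine (-0.54 ± 0.09, SE; adjusted p = 0.0052). The receptors Thra (83.0 to 99.8 against 83.1 to 86.3 FPKM) and Thrb (1.22 to 1.88 against 1.36 to 1.75 FPKM) overlapped, with adjusted p = 0.61 and 0.98. Myh7, a myosin heavy chain that thyroid hormone represses, spread from 54.2 to 303 FPKM within amiodarone against 47.1 to 54.7 FPKM with ivabradine, without a call (adjusted p = 0.24).

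**Figure D4:**
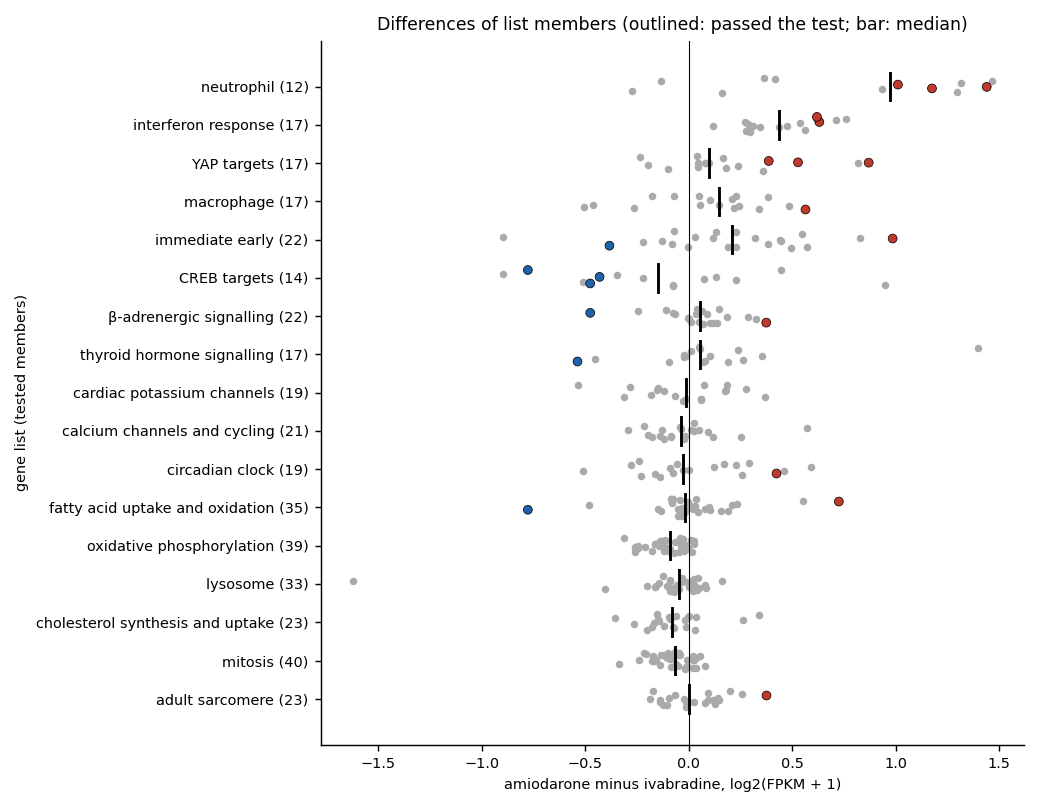
Differences (horizontal axis, log2(FPKM + 1)) of the tested members of 17 gene lists; large outlined points passed the test and black bars are list medians. Neutrophil (median 0.97) and interferon-response (0.44) members lie mostly right of 0, whereas most lists centre near 0.

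YAP targets, genes induced when the Hippo pathway is off and YAP binds TEAD factors, included 3 higher (against 0.639% of all tested genes) and 0 lower of 17 tested members, with a median of 0.10 against 0.00 over all genes. Over the alternatives the median ran from 0.08 to 0.21, and 1 member was called without amiodarone 2. Beside Cyr61 these were Amotl2, an angiomotin-like scaffold that feeds back on the pathway, and Arhgef17, a guanine nucleotide exchange factor. Amotl2 stood at 33.5, 34.2 and 30.9 FPKM with amiodarone and 20.8, 23.8 and 22.98 FPKM with ivabradine (0.53 ± 0.11, SE; adjusted p = 0.028), and Arhgef17 at 17.3, 17.5 and 16.4 FPKM against 10.7, 14.2 and 13.8 FPKM (0.39 ± 0.08, SE; adjusted p = 0.03). Without amiodarone 2 their adjusted p-values were 0.12 and 0.13. Ctgf (Ccn2), the other matricellular YAP target, was at 136, 85.4 and 102 FPKM against 53.8, 65.3 and 60.03 FPKM, apart but not called (0.82 ± 0.23, SE; adjusted p = 0.089), and Ankrd1, named after its values were seen, at 599 to 912 against 663 to 700 FPKM, overlapped (0.09, adjusted p = 0.91).

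The promoters of Cyr61 and Amotl2 are shown because these called YAP targets each hold 1 TEAD core, GGAATG on either strand, in the 300-base RefSeq window around the gene start (GRCm38.p6), most of which lies before it. Capitals mark the match, read here as its reverse complement CATTCC. Sequences are written 5′ to 3′ on the gene's strand, Cyr61 from chr3:145649936-145650235 (minus strand, match starting 103 bases before the gene start) and Amotl2 from chr9:102717554-102717853 (plus strand, 65 bases before).
Cyr61: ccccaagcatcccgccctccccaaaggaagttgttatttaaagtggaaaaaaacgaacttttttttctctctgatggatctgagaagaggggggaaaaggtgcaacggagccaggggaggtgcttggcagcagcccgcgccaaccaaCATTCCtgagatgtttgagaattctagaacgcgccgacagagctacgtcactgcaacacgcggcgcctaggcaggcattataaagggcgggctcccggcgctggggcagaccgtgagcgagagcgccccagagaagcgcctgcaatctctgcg
Amotl2: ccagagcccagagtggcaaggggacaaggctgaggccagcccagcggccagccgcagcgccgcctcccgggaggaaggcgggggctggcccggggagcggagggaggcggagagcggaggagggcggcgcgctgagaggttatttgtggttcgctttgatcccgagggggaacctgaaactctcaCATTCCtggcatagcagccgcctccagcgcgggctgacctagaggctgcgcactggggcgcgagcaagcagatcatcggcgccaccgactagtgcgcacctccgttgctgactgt
Of 11 list genes with such a window, 8 held the core, as did 1393 of 9619 tested genes with a window. The called YAP target Arhgef17 had no window here, nor had Ctgf. Counted by window, it lay in 66.7% of those of list genes, in 14.7% of all 32851 and in 12.3% of those of tested genes. It lay in 15.3% of windows of genes higher with amiodarone and in 5.56% of those of genes lower. A match is a string of letters and shows no binding.

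Targets of CREB, the factor that cyclic AMP and protein kinase A activate, included 0 higher and 3 lower (against 0.440% of all tested genes) of 14 tested members, with a median of -0.15. The median was -0.06 without ivabradine 3 and -0.26 without ivabradine 2, and 1 member was called without amiodarone 2. These were Pde4d, Rgs2 and Ppargc1a. Rgs2, which shuts off Gq-coupled signalling, stood at 17.0, 16.2 and 18.3 FPKM with amiodarone and 23.2, 22.4 and 25.0 FPKM with ivabradine (-0.43 ± 0.09, SE; adjusted p = 0.025; 0.12 without amiodarone 2). Ppargc1a, the PGC-1α coactivator of mitochondrial genes, stood at 14.9, 14.8 and 14.6 FPKM against 20.5, 24.02 and 35.5 FPKM (-0.78 ± 0.16, SE; adjusted p = 0.021; 0.087 without amiodarone 2 and 0.10 without ivabradine 3). The amiodarone libraries were nearly alike and the ivabradine libraries spread, with ivabradine 3 highest. That library was also far from the other 2 for Nr4a1 (133 against 29.4 and 31.3 FPKM) and Sik1 (68.4 against 30.1 and 30.1 FPKM), further members, named after their values were seen, that were not called (adjusted p = 0.67 and 0.92).

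Promoter windows of Ppargc1a and Rgs2 are shown with the CREB half-site TGACG, on either strand, in capitals. Ppargc1a comes from chr5:51567676-51567975 (minus strand, match starting 49 bases before the gene start) and Rgs2 from chr1:144004100-144004399 (minus strand, matches starting 185 and 67 bases before).
Ppargc1a: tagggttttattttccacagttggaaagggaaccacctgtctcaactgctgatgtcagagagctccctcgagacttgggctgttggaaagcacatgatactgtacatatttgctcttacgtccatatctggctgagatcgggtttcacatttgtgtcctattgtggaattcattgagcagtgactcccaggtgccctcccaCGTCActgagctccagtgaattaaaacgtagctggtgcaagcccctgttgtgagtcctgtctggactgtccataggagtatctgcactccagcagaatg
Rgs2: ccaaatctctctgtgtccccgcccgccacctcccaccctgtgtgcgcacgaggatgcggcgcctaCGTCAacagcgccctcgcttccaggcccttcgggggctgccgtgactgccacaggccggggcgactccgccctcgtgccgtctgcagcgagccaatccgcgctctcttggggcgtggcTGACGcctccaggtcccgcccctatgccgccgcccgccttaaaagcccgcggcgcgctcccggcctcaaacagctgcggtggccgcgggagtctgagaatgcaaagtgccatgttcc
The half-site lay in windows of 9 of 11 list genes and of 3419 of 9619 tested genes. Counted by window, it lay in 66.7% of those of list genes, in 20.8% of all windows and in 30.6% of those of tested genes. It also lay in 33.3% of windows of the YAP targets, and the Cyr61 window above holds it unmarked, as CGTCA. Among genes lower with amiodarone it lay in 40.7% of windows and among those higher in 25%. The single window of Pde4d held 0 matches.

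Immediate early genes split, with 1 higher (Egr1) and 1 lower (Klf4) of 22 tested (0.639% and 0.440% over all genes) and a median of 0.21. That median was 0.36 without ivabradine 3 and 0.11 without ivabradine 2. Klf4, a Krüppel-like factor of endothelium and smooth muscle, stood at 29.0, 28.4 and 31.8 FPKM with amiodarone and 36.6, 35.9 and 45.3 FPKM with ivabradine (-0.38 ± 0.07, SE; adjusted p = 0.017; 0.094 without amiodarone 2). Jun (52.3 to 69.7 against 37.3 to 42.1 FPKM) and Btg2 (26.4 to 32.7 against 16.2 to 24.9 FPKM) did not overlap but were not called, with adjusted p = 0.10 and 0.097.

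Neutrophil granule transcripts had the largest called differences. Ngp, neutrophilic granule protein, stood at 7.07, 5.09 and 9 FPKM with amiodarone and 1.81, 1.66 and 2.30 FPKM with ivabradine. Camp, the cathelicidin precursor, stood at 2.39, 2.63 and 3.72 FPKM against 0.49, 0.50 and 1.26 FPKM. Ltf, the iron-binding lactoferrin, stood at 2.24, 1.70 and 2.40 FPKM against 0.56, 0.45 and 0.61 FPKM. All amiodarone libraries exceeded all ivabradine libraries for each of these low-level genes, while single control libraries reached 5.16, 2.33 and 1.31 FPKM.

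The differences were 1.44 ± 0.33 for Ngp, 1.17 ± 0.26 for Camp and 1.01 ± 0.19 for Ltf (SE), with adjusted p = 0.036, 0.031 and 0.015. Without amiodarone 2 the adjusted p-values were 0.064, 0.10 and 0.031, and the differences 1.63, 1.22 and 1.11. Ltf reached the filter only through the amiodarone libraries, where it is high, and Camp through those and 1 ivabradine library, so their entry into the test was not independent of the difference. Ngp passed in 0 of the 6 fits that left out a library, Camp in 1 and Ltf in 5. S100a8 and S100a9, the abundant calprotectin subunits, named after their values were seen, stood at 24.02 to 27.1 and 30.8 to 32.4 FPKM with amiodarone against 7.99 to 10.7 and 8.60 to 13.9 FPKM with ivabradine, with adjusted p = 0.18 and 0.15. In the fit of the 6 libraries alone these were 0.0022 and 0.0051. Control 2 stood at 54.5 and 62.2 FPKM, above every amiodarone library, and the other controls at 6.43 to 9.24 FPKM.

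Of 12 tested neutrophil markers, 3 were called higher and 0 lower in the fit of all 21 libraries and 6 and 0 in the fit of the 6 alone, with a median of 0.97 and 8 not overlapping upward. Over all tested genes 0.639% were called higher and 8.90% did not overlap upward. The list values include Ltf and Camp, whose entry into the test was not independent of the difference. Without amiodarone 2, 1 of the 12 was called and the median was 1.04. The summed level of all 16 was 81.6, 82.8 and 92.7 FPKM with amiodarone, 38.4, 32.0 and 31.0 FPKM with ivabradine, 10.1 to 38.3 FPKM in the 12 libraries of the other drugs and 27.9, 162 and 37.5 FPKM in the controls. Elane and Mpo, made by granulocyte precursors, did not reach the filter. In bulk tissue, more cells of a type and more RNA per cell cannot be told apart.

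Interferon-response genes had 17 of 17 tested members positive, a median of 0.44, 13 with amiodarone above ivabradine in every library, and 2 called, both higher. Over all tested genes these shares were 8.90% and 0.639%. Ifi44 reached the filter only through the amiodarone libraries. Without amiodarone 2 the list had 0 called and a median of 0.51. Irf9, the DNA-binding part of the interferon-stimulated gene factor, stood at 13.6, 13.3 and 17.3 FPKM against 9.55, 10.4 and 7.55 FPKM (0.63 ± 0.15, SE; adjusted p = 0.047). Rtp4, an interferon-induced chaperone, stood at 5.94, 6.06 and 6.88 FPKM against 3.56, 4.58 and 3.19 FPKM (0.62 ± 0.14, SE; adjusted p = 0.031). Without amiodarone 2 these p-values were 0.099 and 0.10, and the differences 0.70 and 0.64. Stat2, the partner of Irf9 in signalling, and Ifit3, an antiviral effector, were not called (0.47 and 0.76, adjusted p = 0.059 and 0.062).

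The controls were not low for this list. Summed over its 20 genes in the table, the level was 123 to 160 FPKM with amiodarone, 91.4 to 99.3 FPKM with ivabradine and 141 to 220 FPKM in the controls, and one lidocaine library reached 150 FPKM. Among 17 tested macrophage markers 1 was higher, Cx3cr1, the fractalkine receptor of resident macrophages, at 5.82, 6.70 and 7.21 FPKM against 4.20, 4.55 and 3.66 FPKM (0.56 ± 0.10, SE; adjusted p = 0.0094; 0.047 without amiodarone 2 and 0.06 without ivabradine 3). The share called higher over all tested genes was 0.639%. The macrophage sums overlapped, at 255 to 358 FPKM with amiodarone and 292 to 335 FPKM with ivabradine.

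Metabolic lists held few called genes, where 0.639% of all tested genes were called higher and 0.440% lower. Fatty acid uptake and oxidation had 1 higher (Angptl4) and 1 lower (Ppargc1a) of 35 tested genes and a median of -0.02; Ppara, the nuclear receptor of fatty acid oxidation, was at 6.69 to 7.13 FPKM against 8.10 to 11.7 FPKM without a call (-0.48, adjusted p = 0.059). Glycolysis had 1 lower of 22, Pfkfb2, the heart isoform of the enzyme that tunes the rate of glycolysis, at 10.3, 10.8 and 11.1 FPKM against 12.9, 16.6 and 16.6 FPKM (-0.47 ± 0.08, SE; adjusted p = 0.0075; 0.056 without amiodarone 1). Oxidative phosphorylation had 0 called of 39 (0 higher and 7 lower at an unadjusted p below 0.05, limma), with 4 positive and a median of -0.09. That median was -0.05 without amiodarone 2 and -0.02 after correction for transcript length and GC content. It was -0.16 without ivabradine 2 and -0.11 without ivabradine 3. The lysosome list, 33 genes, had 0 called (0 and 1 unadjusted). In the fit of the 6 libraries alone 0 of its genes were higher and 2 lower. In this list 9 had every amiodarone library below every ivabradine library (8.06% over all tested genes). Ctsl (cathepsin L), at 99.4 to 105 against 126 to 147 FPKM, was among them (-0.41, adjusted p = 0.37). Cholesterol synthesis and uptake had 0 called of 23 (2 and 3 unadjusted), with 4 positive and a median of -0.08. In it 2 genes did not overlap upward and 5 downward (8.90% and 8.06% over all tested genes). Fatty acid synthesis had 0 called of 14 (5 and 0 unadjusted), with 11 positive and a median of 0.13. The fit of the 6 libraries alone called 1 of its genes higher and 0 lower. Phospholipid handling had 0 called of 15 (1 and 2 unadjusted).

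Neither list of cell cycle genes had a called member. Of 40 tested mitosis genes 0 passed (0 higher and 2 lower at an unadjusted p below 0.05, limma; median -0.07), and of 33 DNA replication genes 0 (5 and 0; median 0.07). Without amiodarone 2 the medians were 0.03 and 0.01. For the lists that follow, the called shares over all tested genes were 0.639% higher and 0.440% lower. Adult sarcomere genes had 1 higher of 23, Xirp1, an intercalated-disc actin-binding protein, at 71.8, 63.9 and 61.7 FPKM against 48.3, 55.7 and 47.9 FPKM (0.37 ± 0.08, SE; adjusted p = 0.036; 0.10 without amiodarone 2). Its disc partner Flnc, filamin C, named after its values were seen, was at 68.7, 61.8 and 66.3 FPKM against 42.2, 54.5 and 52.4 FPKM (0.40 ± 0.08, SE; adjusted p = 0.018; 0.098 without amiodarone 1 and 0.07 without ivabradine 1). One clock gene of 19, Bhlhe41, was higher (0.42 ± 0.09, SE; adjusted p = 0.027; 0.14 without amiodarone 2), as was 1 of 21 stress-response genes, Psat1 of serine synthesis (0.50 ± 0.09, SE; adjusted p = 0.0075; 0.062 without amiodarone 1). Among 18 endothelial markers 1 was lower, Sox17, an arterial transcription factor, at 5.91 to 6.96 against 7.31 to 8.46 FPKM (-0.32 ± 0.07, SE; adjusted p = 0.029; 0.13 without amiodarone 2).

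To place each drug, both were set against the mean of metoprolol, propranolol and lidocaine, 9 libraries that the 2 contrasts share. Amiodarone differed from that mean in 8 genes (0.0664%) and ivabradine in 7 (0.0581%). Leaving out any 1 of the 3 amiodarone libraries gave 0 genes for amiodarone (limma). Among the 8 were Ngp, Camp, Ltf, Stfa3, Dbp, Rtp4 and Pik3c2b, each higher. Camp and Ltf had entered the test through the amiodarone libraries, where they are high, so this too was not independent of the difference. Ngp, for example, was 1.63 above the mean (adjusted p = 0.032). Stfa3, a cystatin found in neutrophils, stood at 4.60 ± 0.73 FPKM with amiodarone and 0.74 FPKM in the mean of the 9 libraries (1.70, adjusted p = 0.01).

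The 7 for ivabradine were Rhobtb1 and Gpcpd1, higher, and Lbh, Angptl4, Amotl2, Grip2 and Nfatc2, lower. Rhobtb1 stood at 23.1 ± 1.68 FPKM against a mean of 15.7 FPKM (0.53, adjusted p = 0.00026) and Angptl4 at 34.2 ± 2.97 FPKM against 59.1 FPKM (-0.74, adjusted p = 0.016; SD, n = 3 libraries). Amotl2 differed from the mean by -0.53 with ivabradine (adjusted p = 0.032) and by 0.00 with amiodarone.

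The other groups were then placed between the drugs by their means for the 130 called genes. The control mean lay nearer amiodarone for 93, isoproterenol for 108, metoprolol for 98 and propranolol for 87, while lidocaine lay nearer ivabradine for 101. Over all tested genes the share nearer amiodarone was 47.3% for control, 56.7% for isoproterenol, 59.8% for metoprolol, 52.1% for propranolol and 51.7% for lidocaine. Noct with lidocaine averaged 24.6 FPKM, beside 24.5 FPKM with ivabradine and 13.5 FPKM with amiodarone. These are descriptions of group means, with no test.

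**Figure D5:**
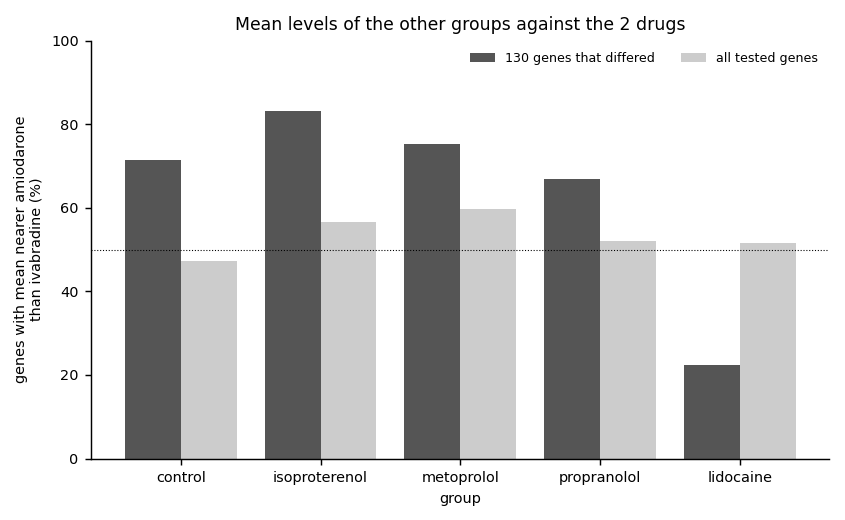
Share of genes whose group mean lies nearer amiodarone than ivabradine, for the 130 called genes (dark) and all 12051 tested genes (light), in the 5 other groups. Lidocaine stands at 22.3% for the called genes and the other groups at 66.9 to 83.1%.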

How the data were processed

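Gene expression was measured by RNA sequencing on BGISEQ-500 in 21 heart apex libraries, 3 in each of 7 groups. The authors deposited 1 table of FPKM values with 2 decimals for 18762 genes. Per the submitters' processing notes, HISAT and Bowtie2 2.2.5 were used with mm9; the gene counter and annotation are not given in the sources used here. FPKM carry no read counts, so no count test was possible. From these values log2(FPKM + 1) was computed, and limma 3.58.1 in R 4.3.3 fitted 7 group means over all 21 libraries (14 residual degrees of freedom, moderated with a trend). P-values were two-sided and adjusted by Benjamini-Hochberg over 12051 genes, with a threshold of 0.05. Each drug was also set against the mean of metoprolol, propranolol and lidocaine. An exact permutation test of 3 against 3 libraries cannot go below p = 0.1 and was not used.

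Genes were named by a rule: the 10 largest called differences each way among genes whose drug libraries do not overlap, the 4 members of smallest p of each of 49 lists with a called member (at most 2 in other lists), the drugs' targets, the lung markers, and the 5 genes of smallest p without amiodarone 2. Others are said to be named after their values were seen. The members and lists were chosen with earlier results of these data known. Alternatives numbered 15 planned and 2 added after seeing the data. The script was tested on simulated data. Promoters came from RefSeq (GRCm38.p6), matched by gene ID. Some genes that the rule names are not reported here.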

Additional observations from a re-analysis of the deposited data

How the results depend on the processing

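The main counts were 77 genes higher and 53 lower with amiodarone. Genes higher numbered 48 with no filter, 45 in the fit of the 6 libraries alone (44 of its 76 calls both ways were among the 130), 132 with a Y-linked covariate, 6 without the 5 libraries highest in a marker of another tissue, and 12 to 166 with 1 library left out. Genes lower numbered 31 in the fit of the 6 alone, 90 after length and GC correction (with 89 higher), 6 without those 5 libraries, and 10 to 77 with 1 library left out. The 8 genes of amiodarone against the other 3 drugs became 1 with a pseudocount of 0.1, 2 with no filter, 4 at 5 FPKM or more, 26 in the fit of 5 groups alone, 4 with robust moderation, 0 with the Y-linked covariate, 0 without the 5 libraries, and 0 to 9 with 1 library left out. The 7 of ivabradine became 2 with no filter, 13 in the fit of 5 groups, 2 without the 5 libraries, and 1 to 8 with 1 library left out. The cause was not tested. Over named genes and alternatives, 171 values lost the call, 48 gained it, 2704 stayed on their side. No called gene changed sign, but some uncalled ones did, such as Ager (0.53, and -0.27 without amiodarone 2).

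Deviations of same-numbered libraries from their group means correlated at r = -0.06, 0.26 and -0.23 for the 3 numbers, without a common sign. A replicate block gave 79 higher and 56 lower, 122 of them among the 130, and 6 and 9 genes for the contrasts with the other drugs. Absolute depth is unknown, so low-level genes such as Camp and Ltf carry counting error that cannot be given.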

Other observations

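Spp1, Gpnmb and Lgals3 were picked after their values were seen. Spp1 is also in the extracellular matrix list and Gpnmb in the lysosome list. In the fit of the 6 libraries alone those lists had 0 genes higher, and 1 and 2 lower. Spp1, Gpnmb and Lgals3 did not overlap between the drugs, as was so for 17.0% of all tested genes. None of them passed the test across all groups. Spp1, osteopontin, stood at 10.3, 37.2 and 11.7 FPKM with amiodarone and 70.4, 106 and 67.3 FPKM with ivabradine (adjusted p = 0.56, and 0.043 in the fit of the 6 libraries alone). Gpnmb, a glycoprotein of lipid-laden macrophages, stood at 6.85, 14.4 and 9.92 FPKM against 27.9, 42.9 and 29.2 FPKM (0.59 and 0.016), and Lgals3, galectin-3, at 6.35, 11.3 and 11.6 FPKM against 26.7, 27.7 and 19.2 FPKM (0.52 and 0.025). All amiodarone libraries were below all ivabradine libraries, but the control libraries alone ran from 2.39 to 262 FPKM for Spp1. The macrophage list as a whole had 12 of 17 tested members positive and a median of 0.14. In it 4 members did not overlap upward and 2 downward (8.90% and 8.06% over all tested genes).

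In all, 34 tested genes differed by at least 1 on the log2 scale. Of these, 24 did not overlap between the drugs (17.0% over all tested genes). The fit of all 21 libraries called 3 of them (Ngp, Camp and Ltf) and the fit of the 6 alone 15. Gm2260 and Gm2274 are counted apart in the 34 and the 24, though their values were identical in all 21 libraries. The same holds for LOC100862456 and LOC102641086. Saa3, an acute-phase protein, stood at 3.48, 3.21 and 7.92 FPKM with amiodarone against 0.67, 0.45 and 0.44 FPKM with ivabradine and was not called (adjusted p = 0.095). It entered the test only through the amiodarone libraries.

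A list of 17 glucocorticoid-responsive genes had 1 called higher and 3 lower with amiodarone, against 0.639% and 0.440% of all tested genes, and a median of -0.23. It was chosen after values were seen, so its count restates what prompted it. Tsc22d3 and Fkbp5, common readouts of the glucocorticoid receptor, were not called (-0.23 and 0.14, adjusted p = 0.16 and 0.60).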
